A study of Mus musculus with 12 samples.

Results

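The genes described here are 9 genes of calcium signalling and excitatory transmission in the mouse frontal cortex, taken by symbol from a table of 14909 genes. They are the 4 genes of calcium/calmodulin-dependent protein kinase II (Camk2a, Camk2b, Camk2d and Camk2g), the calmodulin genes Calm2 and Calm3, the calmodulin-binding protein gene Nrgn, the vesicular glutamate transporter gene Slc17a7 and the G protein regulator gene Rgs4. All 9 were found and all 9 passed the filter on low counts. The set was named for dense counts that level off as libraries get deeper, so that levelling is a description here and not a finding; Camk2d has neither trait, and 8 of the 9 are densely counted.

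Bulk RNA sequencing compared frontal cortex of 5 Upf3b-null C57BL/6 mice (KO 1, 2, 3, 4 and 6) with that of 7 wild-type C57BL/6 mice (WT 1 to 7), with 1 library per mouse. The question was which genes differ in level when Upf3b, a gene of the nonsense-mediated mRNA decay pathway, is absent. The sources used here do not give the age or sex of the mice, the way the null allele was made or whether the groups were littermates. Upf3b itself had 11 to 24 counts in the KO libraries, against 157 to 219 in the WT libraries (log2 fold change -3.78 ± 0.13 SE, edgeR adjusted p = 7.21e-11), and no library went against its label.

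Calmodulin is a small calcium sensor that changes shape when calcium enters the neuron and then binds and switches on other proteins. CaMKII is a many-subunit kinase held inactive by a segment of its own chain. Calcium-loaded calmodulin binds next to that segment and releases the kinase, which can then phosphorylate itself and stay active, a step known for its part in long-term potentiation at glutamate synapses. Neurogranin, the product of Nrgn, binds calmodulin when calcium is low. VGLUT1, the product of Slc17a7, loads glutamate into synaptic vesicles of cortical excitatory neurons, and RGS4 shortens signals from G protein-coupled receptors.

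The calmodulin and CaMKII genes are close paralogs, and the coding sequence shows how far reads that lie within it could be told apart by gene. The stretch that encodes the first calcium-binding loop of calmodulin, bases 61 to 96 of the coding sequence, is given for Calm2 and Calm3 from GENCODE M21 transcripts of the GRCm38 build, 5′ to 3′. Capitals mark the 7 bases that differ between these genes.
Calm2: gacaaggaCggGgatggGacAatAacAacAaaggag
Calm3: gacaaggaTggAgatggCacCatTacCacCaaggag
Over the whole coding sequence Calm2 and Calm3 had 82.7% identical bases and differed in 76 of 149 codons, with 0 amino acids different. The longest run of bases that they shared was 17 bases, so a longer read within the coding sequence holds at least 1 base that tells Calm2 and Calm3 apart. Without the stop codon, coding bases are 447 of 1205 exonic bases in Calm2 and 447 of 2290 in Calm3. The exonic sequence outside the coding part was not compared.

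The CaMKII genes diverge in the same way around the segment that holds the kinase inactive and binds calmodulin. Bases 847 to 915 of the coding sequence are given for 3 of the 4 genes, with capitals at the 26 positions where the 3 genes are not all the same.
Camk2b: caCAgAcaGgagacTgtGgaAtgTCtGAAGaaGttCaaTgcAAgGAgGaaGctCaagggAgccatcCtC
Camk2d: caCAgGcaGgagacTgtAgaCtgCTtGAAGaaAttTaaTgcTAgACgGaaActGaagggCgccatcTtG
Camk2g: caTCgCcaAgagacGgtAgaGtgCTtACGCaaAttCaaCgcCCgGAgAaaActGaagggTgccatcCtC
The longest run of coding bases shared by 2 of the 4 CaMKII genes was 23 to 32 bases. How reads that match 2 genes were counted is not stated in the sources used here, so the split of counts within these families carries that uncertainty. The stretch of Nrgn that encodes its calmodulin-binding IQ motif, coding bases 97 to 138, is shown because it is the site through which neurogranin meets calmodulin, with the isoleucine and glutamine codons of the motif in capitals.
Nrgn: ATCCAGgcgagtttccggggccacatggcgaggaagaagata

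The libraries differed in depth by group. Totals, in units of 1e6 counts, were 4.99 in KO 1 and 6.07 to 6.62 in the other 4 KO libraries, against 4.68 to 5.43 in the WT libraries. KO 2 and WT 4 had the highest striatal marker sums of their groups. Summed over 14 striatal neuron markers, the level in CPM (counts scaled to 1e6 per library) was 1217 to 2018 in KO. In WT it was 1055 to 2451 CPM. WT 4 was not alone among the WT libraries: WT 7 had 1950 CPM and WT 6 had 1667 CPM, each above every KO library except KO 2. Of the 14 markers 0 were called in either direction. The excitatory neuron label held: beside Slc17a7, Camk2a and Nrgn, the cortical excitatory markers Neurod6 and Tbr1 were present in all 12 libraries. Neurod6 had 61.9 to 103.7 CPM in KO and 70.7 to 115.7 CPM in WT, and Tbr1 had 117.6 to 170.8 CPM in KO and 133.4 to 176.6 CPM in WT.

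In CPM, 7 of the 9 genes were lower in KO and 0 were higher by edgeR's quasi-likelihood test, at an adjusted p under 0.05 over all 14274 genes tested. The 7 were Camk2a, Camk2b, Calm2, Calm3, Nrgn, Slc17a7 and Rgs4, with levels of 76.4% to 87.6% of those in WT. Camk2d and Camk2g did not pass. The set was named for counts that level off with depth, and most KO libraries were deeper than the WT libraries. A lower CPM in KO is thus partly built into the choice of genes, and these calls are a description. Of all tested genes 14.4% were called lower and 15.3% higher. At an unadjusted p under 0.05, where 22.2% of all genes were higher, and also with DESeq2, 0 of the 9 were higher; DESeq2 called the same number of the 9 lower, 7, where it called 15.3% of all genes lower and 11.9% higher. Ranked by mean count per exonic base, the densest 10% of genes (1423 genes) hold 8 of the 9, and 7 of these 8 were called lower, where 67.5% of the genes in that class were. The densest 1% (143 genes) hold 6 of the 9, all 6 called lower, where 93.0% of the genes in that class were, so the share among the 9 was near the background of its density. In bulk tissue, fewer cells of a type and less RNA per cell cannot be told apart.

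Camk2a encodes the alpha subunit of CaMKII, the most abundant one in forebrain excitatory neurons, and lies on chromosome 18 at 60925618 to 60988152 of mm10, on the plus strand. Its read counts were 3645, 3602, 3817, 3792 and 3658 in KO 1, 2, 3, 4 and 6, against 3543 to 3764 in the 7 WT libraries. The counts of the 2 groups overlapped almost fully, although 4 of the 5 KO totals exceeded every WT total. Its level was 745.5, 560.4, 564.5, 583.4 and 602.4 CPM in the same KO libraries, and the lowest, median and highest WT levels were 672.3, 766.1 and 805.7 CPM. KO 1, the shallowest KO library, lay inside the WT range, and the other 4 KO libraries lay below every WT library. Camk2a averaged 611 ± 76.9 CPM in KO and 750 ± 46.6 CPM in WT (SD, n = 5 and 7), with a log2 fold change of -0.30 ± 0.07 (SE, edgeR adjusted p = 0.00619).

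Camk2b, the beta subunit gene, whose protein also binds actin, lies on chromosome 11 at 5969644 to 6066362 on the minus strand. Its level was 444.5, 382.1, 362.3, 364.2 and 393.9 CPM in KO 1, 2, 3, 4 and 6, and the lowest, median and highest WT levels were 418.0, 442.5 and 466.7 CPM. KO 1 again sat among the WT libraries and the other KO libraries below them. The fold change was smaller than that of Camk2a, at -0.19 ± 0.05 on the log2 scale (SE, edgeR adjusted p = 0.0115), with means of 389 ± 33.4 CPM in KO and 444 ± 15.1 CPM in WT. Its counts were on average higher in KO, at 2368 ± 115.2, against 2161 ± 120.6 in WT (SD).

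Camk2g, the gamma subunit gene, on chromosome 14 at 20734875 to 20794088 on the minus strand, did not pass. Its level was 277.6, 208.9, 248.4, 244.3 and 258.7 CPM in KO 1, 2, 3, 4 and 6, and the lowest, median and highest WT levels were 218.3, 280.0 and 289.1 CPM. The lowest library of each group was the one with the highest striatal markers, KO 2 and WT 4. WT 7 and WT 6, next after WT 4 in striatal markers, had 281.9 and 289.1 CPM. The log2 fold change was -0.14 ± 0.07 (SE, edgeR adjusted p = 0.169; 95% interval -0.29 to 0.02). Without WT 4 it was -0.20 and passed (adjusted p = 0.0156), and without both KO 2 and WT 4 it was -0.14 ± 0.04 and passed (adjusted p = 0.0221). The part of tissue makeup in this value was not tested.

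Camk2d, the delta subunit gene, also well known from heart muscle, is the only gene of the 9 outside the densest 10%, at percentile 51.7 of count per exonic base. It lies on chromosome 3 at 126596302 to 126846326 on the plus strand and had no detectable difference. Its level was 129.5, 148.3, 109.7, 131.2 and 114.3 CPM in KO 1, 2, 3, 4 and 6, and the lowest, median and highest WT levels were 109.8, 123.6 and 169.1 CPM. The groups overlapped throughout, and here KO 2 and WT 4 were the highest of their groups. WT 7 and WT 6, next after WT 4 in striatal markers, had 119.8 and 114.2 CPM. The log2 fold change was -0.02 ± 0.10 (SE, edgeR adjusted p = 0.918), with a 95% interval of -0.22 to 0.19, so a difference of the size seen for Camk2b lies inside the interval. Among the 9 genes Camk2d has 2 annotated transcripts of the nonsense-mediated decay biotype and Camk2g and Calm3 have 1 each, and counts per gene do not separate these from the other transcripts.

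**Figure D1:**
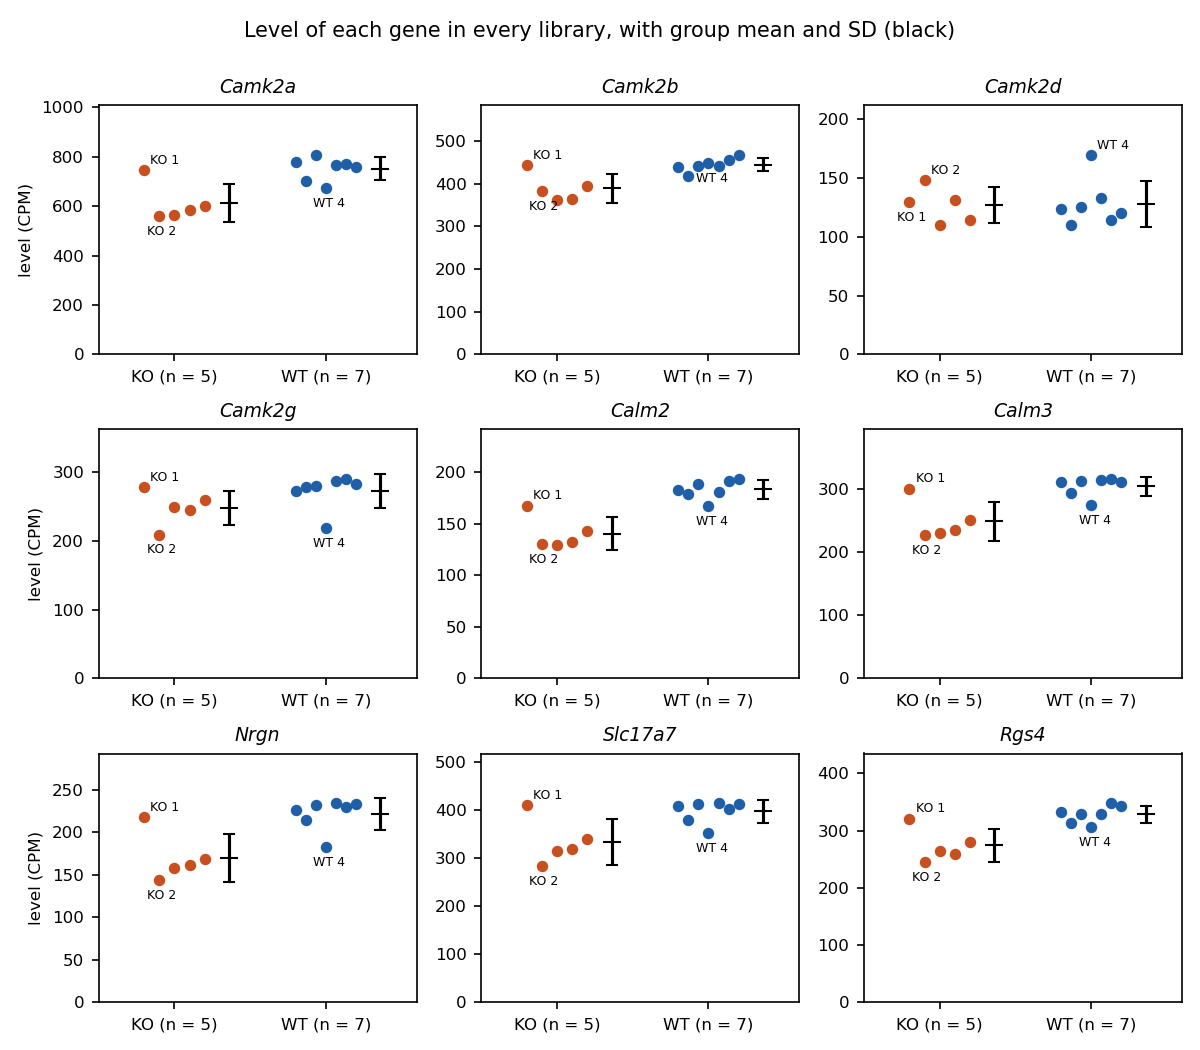
Level in CPM (y axis, from 0) of each of the 9 genes in the 5 KO and 7 WT libraries; each point is 1 mouse, and the black bar gives the group mean and SD. KO 1 lies within the WT range in every panel, and the other 4 KO points lie below all WT points for the 7 genes called lower; KO 2 and WT 4 are the lowest of their groups for Camk2g and the highest for Camk2d.

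Calm2 had the smallest adjusted p of the 9. It encodes calmodulin and lies on chromosome 17 at 87433412 to 87446935 on the minus strand. Its counts were 818, 836, 876, 856 and 865 in KO 1, 2, 3, 4 and 6, against 846 to 948 in WT, so that even the raw counts were on average lower in the deeper group (850.2 ± 23.2 in KO and 889.7 ± 31.7 in WT, SD). In CPM it had 167.3, 130.1, 129.5, 131.7 and 142.4 in the KO libraries, and the lowest, median and highest WT levels were 167.0, 182.7 and 192.9 CPM. KO 1 and WT 4 were level with each other, and no other KO library reached the WT range. The log2 fold change was -0.39 ± 0.06 (SE, edgeR adjusted p = 0.000662), the 20th lowest of the 1423 genes in the densest 10%.

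Calm3, on chromosome 7 at 16915379 to 16924114 on the minus strand, encodes the same protein and was also lower in KO by CPM. Its counts were 1468, 1455, 1555, 1526 and 1525 in KO 1, 2, 3, 4 and 6, against 1451 to 1556 in WT, nearly the same range. The CPM values were 300.3, 226.4, 230.0, 234.8 and 251.1 in the KO libraries, and the lowest, median and highest WT levels were 273.5, 310.5 and 314.9 CPM. As for Calm2, KO 1 alone overlapped WT. The log2 fold change was -0.29 ± 0.06 (SE, edgeR adjusted p = 0.00409).

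Nrgn lies on chromosome 9 at 37544492 to 37552904 on the minus strand. Its counts were 1065, 925, 1068, 1047 and 1024 in KO 1, 2, 3, 4 and 6, against 977 to 1137 in WT, and KO 2 and WT 4 were the lowest of their groups. As for Calm2, the raw counts were on average lower in KO, at 1025.8 ± 59.0, against 1075.4 ± 48.6 in WT (SD). In CPM it had 217.8, 143.9, 157.9, 161.1 and 168.6 in the KO libraries, and the lowest, median and highest WT levels were 182.3, 229.9 and 234.3 CPM. KO 1 lay inside the WT range and the other 4 KO libraries below it. The log2 fold change was -0.39 ± 0.09 (SE, edgeR adjusted p = 0.00464), the same size as that of Calm2 with a wider error, and without KO 2 and WT 4 the gene was still called.

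Slc17a7, on chromosome 7 at 45163949 to 45176142 on the plus strand, had counts of 2012, 1829, 2131, 2082 and 2072 in KO 1, 2, 3, 4 and 6, against 1869 to 2012 in WT. Its levels were 411.5, 284.5, 315.1, 320.3 and 341.2 CPM in these KO libraries, and the lowest, median and highest WT levels were 352.5, 409.3 and 414.8 CPM. KO 1 was as high as the upper WT libraries. KO over WT this was a log2 fold change of -0.25 ± 0.07 (SE, edgeR adjusted p = 0.0196). The call was lost without KO 3 (adjusted p = 0.0533) and without KO 4 (adjusted p = 0.0536).

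Rgs4, on chromosome 1 at 169741477 to 169747642 on the minus strand, had counts of 1568, 1571, 1791, 1689 and 1705 in KO 1, 2, 3, 4 and 6, against 1534 to 1664 in WT. In CPM it had 320.7, 244.4, 264.9, 259.9 and 280.8 in the KO libraries, and the lowest, median and highest WT levels were 305.5, 328.6 and 347.6 CPM. The pattern was that of Slc17a7, with only KO 1 inside the WT range. KO over WT this was a log2 fold change of -0.26 ± 0.06 (SE, edgeR adjusted p = 0.00439).

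None of the 9 genes separated the groups in CPM, since KO 1 overlapped WT each time; 10.6% of all tested genes separated them in either direction, 4.80% with all KO libraries below all WT libraries and 5.84% with all above. In raw counts none of the 9 did so either, while 9.32% of all genes had every KO library above every WT library and 0.0490% had it below. The 9 genes had a median log2 fold change of -0.26, against 0.03 over all tested genes, -0.18 over the densest 10% and -0.27 over the densest 1%. The median of the 9 thus lay between those of the 2 dense classes. Within the densest 10% Calm2 and Nrgn ranked 20th and 21st from the bottom of 1423, Camk2a 159th, Calm3 181st, Rgs4 298th, Slc17a7 350th, Camk2b 678th and Camk2g 958th.

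**Figure D2:**
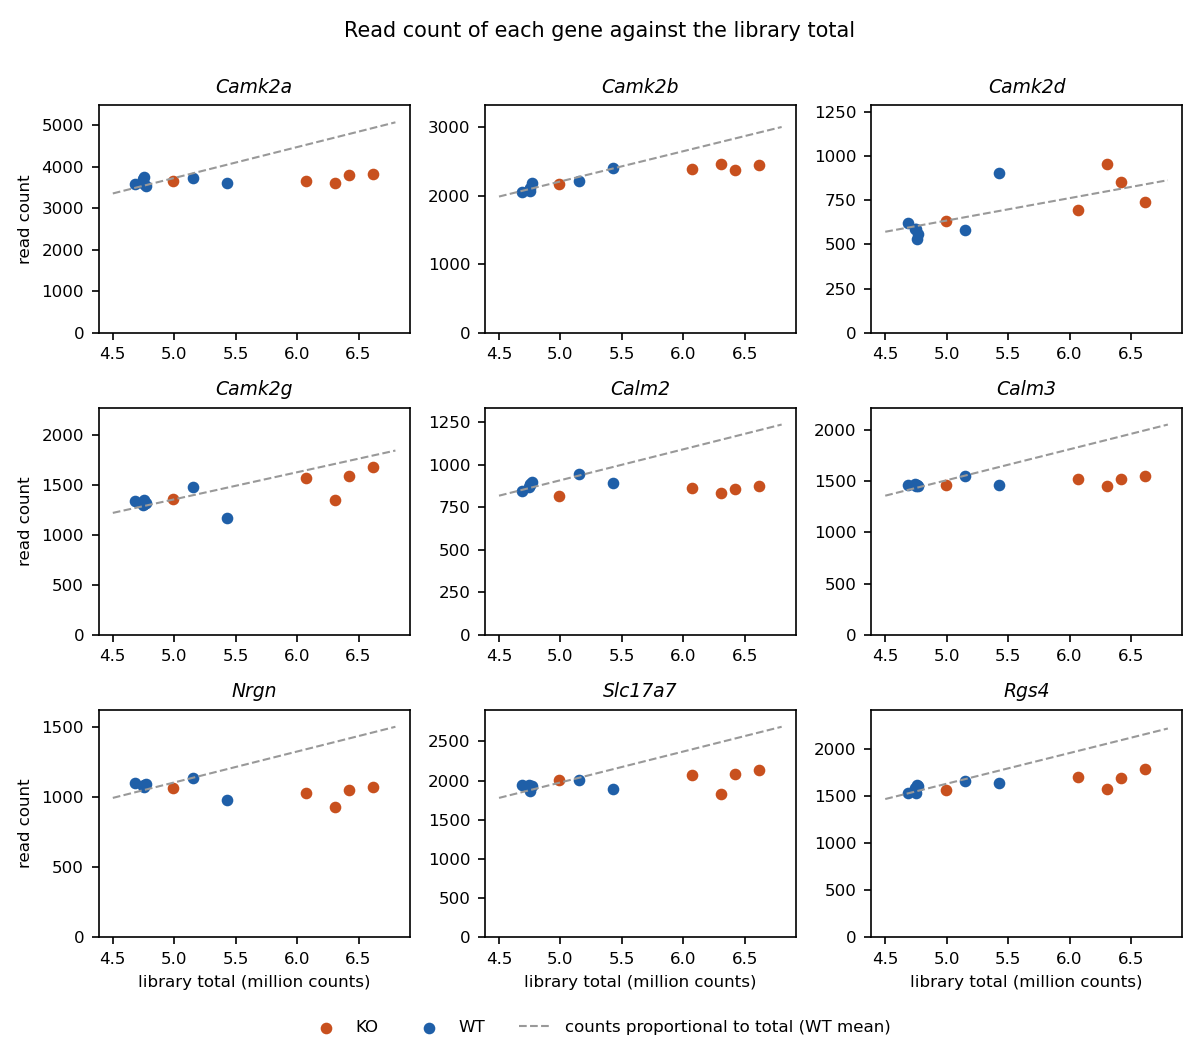
Read count (y axis, from 0) of each gene against the library total in units of 1e6 counts (x axis); each point is 1 of the 5 KO or 7 WT libraries, and the line marks counts proportional to the total. Camk2a and Calm3 stay flat, from 3543 to 3817 and from 1451 to 1556 counts, while Camk2d spreads from 531 to 953.

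How far each count followed depth was described by the slope of log2 count on log2 library total over the 12 libraries, where 1 means proportional to depth. The median slope over all genes was 1.20, and the medians of 10 equal density classes fell steadily along density, from 1.72 in the sparsest class to 0.53 in the densest. The slope was 0.08 for Camk2a, 0.11 for Calm3, -0.06 for Calm2, -0.22 for Nrgn, 0.16 for Slc17a7 and 0.25 for Rgs4, so these 6 were nearly flat. It was 0.47 for Camk2b and 0.51 for Camk2g, close to the median of their density class, and 1.15 for Camk2d, which followed the total. These slopes mix group with depth. Within the KO libraries alone they were 0.12 for Camk2a, 0.14 for Calm3, 0.20 for Calm2, -0.13 for Nrgn, 0.07 for Slc17a7, 0.33 for Rgs4, 0.42 for Camk2b, 0.56 for Camk2g and 0.97 for Camk2d. Within the WT libraries alone, whose totals span less, they were 0.02 for Camk2a, 0.18 for Calm3, 0.37 for Calm2, -0.45 for Nrgn, 0.02 for Slc17a7, 0.40 for Rgs4, 0.92 for Camk2b, -0.38 for Camk2g and 2.50 for Camk2d. The slopes of Camk2a, Calm3 and Slc17a7 stayed under 0.2 in both groups, and those of Camk2b, Camk2g and Camk2d changed most. The WT slopes rest mostly on WT 4 and WT 2. Their totals were 5425770 and 5149710 counts, against 4684040 to 4769820 in the other WT libraries. WT 4, with the highest striatal marker sum, had 906 counts of Camk2d, against 531 to 622 in the other WT libraries. For Camk2g it had 1170, against 1295 to 1473, and for Nrgn 977, against 1069 to 1137. Depth and tissue makeup thus cannot be told apart in the WT slopes of Camk2d, Camk2g and Nrgn. The highest count of Camk2a over the lowest was 1.08 and the highest library total over the lowest was 1.41. Only 0.0631% of tested genes had a ratio at or under that of Camk2a. Depth differs between the groups, so for these genes a lower CPM in KO and a count that does not follow depth cannot be told apart by CPM alone.

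**Figure D3:**
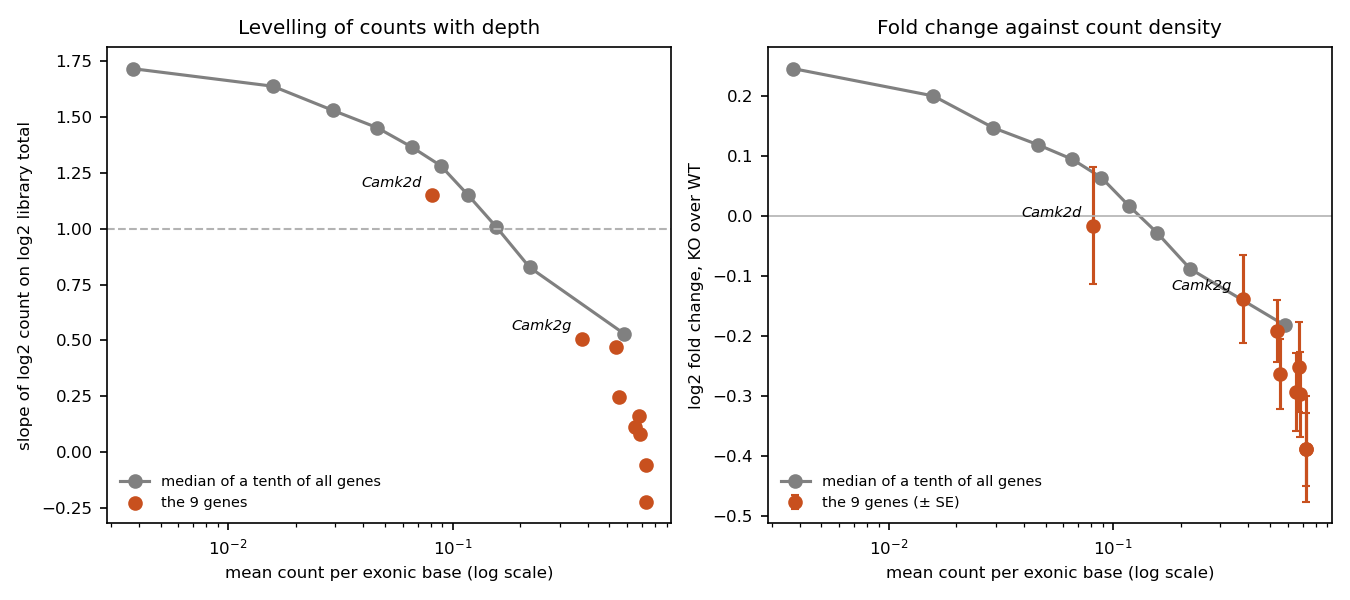
Left, slope of log2 count on log2 library total over the 12 libraries; right, log2 fold change of KO over WT; both against the mean count per exonic base on a log axis, with the 9 genes in orange (bars at right are SE) and the medians of 10 equal density classes of all genes in grey. Camk2d sits in mid density with a slope of 1.15 and a log2 fold change near 0, and the other 8 sit at the dense end, where the grey median falls to 0.53 at left and -0.18 at right.

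Both fits over all 12 libraries that take density or depth into account called fewer of the 9. The density offsets are fitted per library without regard to group, so they would also take up a KO difference that dense genes share. With an offset per gene and library fitted to count density, 1 of the 9 genes was called lower and 0 higher, where 7.97% of all genes were called lower and 8.45% higher; at an unadjusted p under 0.05 by the same fit 2 were lower and 0 higher, against 15.5% and 16.2% of all genes. The gene that passed was Calm2, at -0.10 ± 0.03 on the log2 scale (SE, edgeR adjusted p = 0.0244). Nrgn had the same value and a wider error, and did not pass (-0.10 ± 0.04, adjusted p = 0.126). The others were between -0.08 for Camk2d and 0.05 for Camk2b, with Camk2a at -0.02, Calm3 at -0.02, Slc17a7 at 0.03 and Rgs4 at -0.02. The directions of Camk2b and Slc17a7 turned in this fit, as did that of Camk2g, at 0.05, which had not been called.

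With the log2 library total as a covariate 0 of the 9 genes were called, where 0.588% of all genes were called higher and 0.0771% lower; at an unadjusted p under 0.05 by the same edgeR fit 0 were higher and 1 lower, against 7.4% and 5.67% of all genes. Calm2 had -0.12 ± 0.05 (SE, adjusted p = 0.347), and Camk2a had 0.02 ± 0.04 (adjusted p = 0.893). Camk2a, Calm3, Nrgn and Slc17a7 turned to values above 0, as did Camk2g, which had not been called. Group and total are partly confounded in this fit. Between the libraries of shared depth, KO 1 against WT 2 and WT 4, 0 genes of the table were called by edgeR (206 higher and 72 lower at an unadjusted p under 0.05). That comparison has 1 KO library, which is assumed to vary like the others, and could not call even Upf3b (-4.03, adjusted p = 0.385), so its lack of calls says nothing of the 9 genes. As values, these had log2 fold changes between -0.11 for Camk2d and 0.17 for Slc17a7, with only Camk2d and Calm2 below 0. WT 2 and WT 4 were the lowest WT libraries in CPM for Camk2a, Calm2, Calm3, Nrgn, Slc17a7 and Rgs4. For Camk2a they had 701.9 and 672.3 CPM, against 757.8 to 805.7 CPM in the other 5 WT libraries. WT 4 also had the highest striatal marker sum, at 2451 CPM, against 1066 CPM in WT 2. Depth and tissue makeup thus cannot be told apart in the WT 4 values, and the part of tissue makeup was not tested. Cyclic loess, which evens out log ratios along abundance but not along gene length, called 7 of the 9 lower, where it called 15.1% of all genes lower and 12.8% higher, with Calm2 at -0.34, Nrgn at -0.34 and Camk2b at -0.08.

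**Figure D4:**
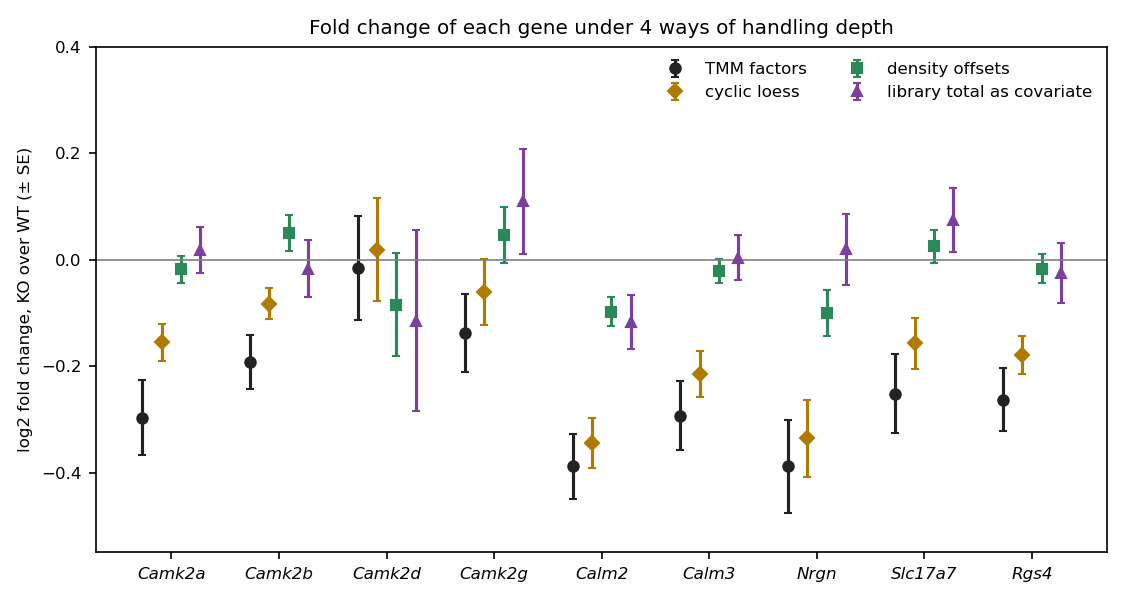
Log2 fold change of KO over WT with its SE (y axis) for each of the 9 genes under TMM factors, cyclic loess, density offsets and the library total as a covariate. The values with TMM factors run from -0.39 to -0.02, those with density offsets from -0.10 to 0.05.

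Shares within a library need no scaling to its total, and the makeup of the CaMKII family was given as such shares per exonic length, with no test. Camk2a made up 39.4 ± 1.17% of CaMKII reads per length in KO and 41.7 ± 1.09% in WT (SD, n = 5 and 7). Camk2b made up 32.3 ± 0.985% in KO and 31.8 ± 1.33% in WT, Camk2g 23.2 ± 1.53% in KO and 22.0 ± 1.46% in WT, and Camk2d 5.20 ± 0.822% in KO and 4.52 ± 0.856% in WT. The groups overlapped for each CaMKII gene, and KO 1 had 41.4% of Camk2a, among the WT values, while KO 2 and WT 4 had the most Camk2d, at 6.48% and 6.40%. The 4 genes followed depth unequally, as their slopes show, so their shares also change with depth.

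Calm2 and Calm3 are both at the dense end, with slopes of -0.06 for Calm2 and 0.11 for Calm3. Of the reads per length of Calm2 and Calm3 together, Calm2 made up 51.8 ± 0.292% in KO and 53.4 ± 0.609% in WT (SD, n = 5 and 7). This share was 51.4% to 52.2% in the 5 KO libraries and 52.4% to 54.2% in the 7 WT libraries, with no overlap, KO 1 included. The count of Calm2 over that of Calm3 was 0.557 to 0.575 in KO and 0.578 to 0.622 in WT, and here KO 1 was the lowest of all. Of the 36 pairs among the 9 genes 3 had ratios without overlap, all with Calm2 in them: Calm2 with Calm3, with Rgs4 and with Camk2g. Of all pairs of genes in the densest 10% of genes, 11.4% did so, and 3 of 36 is near that background.

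**Figure D5:**
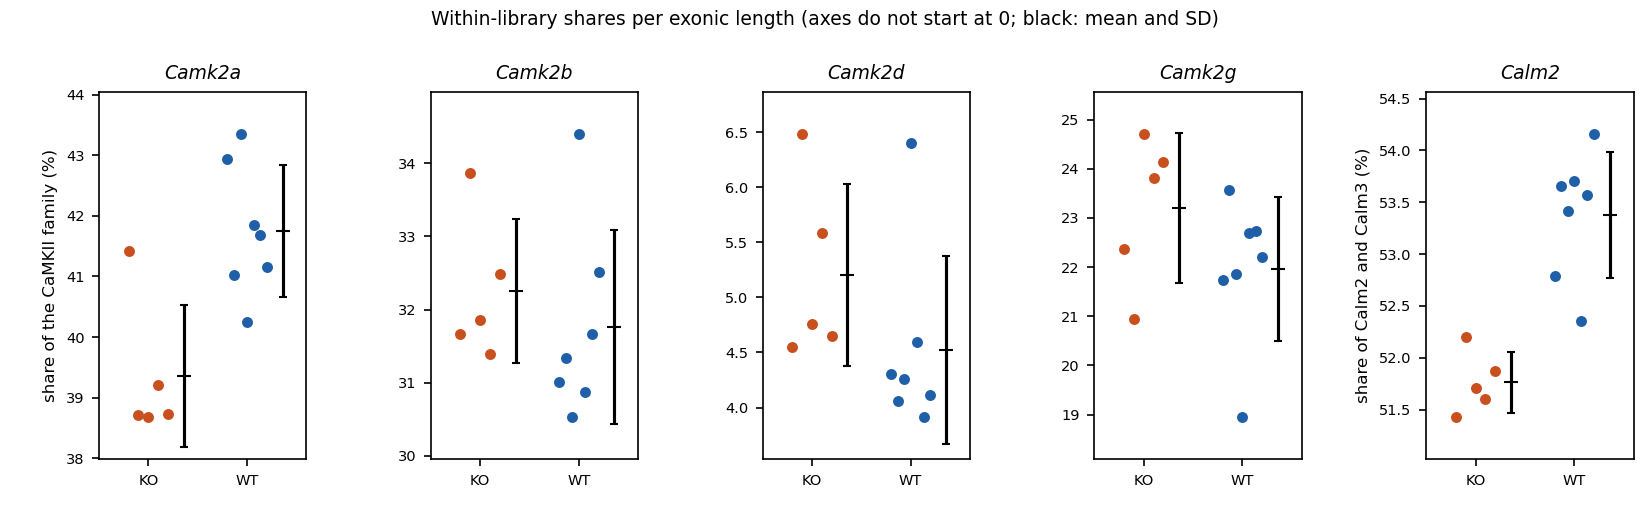
Share per exonic length of each CaMKII gene among the 4, and of Calm2 among Calm2 and Calm3 (y axes in percent, not starting at 0), with 1 point per KO or WT library and the mean and SD in black. The Calm2 share separates the 5 KO from the 7 WT libraries, at 51.4% to 52.2% against 52.4% to 54.2%, and the shares of the 4 CaMKII genes overlap.

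Per exonic length the 9 levels had the same gene at the top and the same 3 at the bottom in both groups. In KO the order was Nrgn at 116.9, Calm2 at 116.4, Slc17a7 at 114.8, Camk2a at 113.8, Calm3 at 108.5, Rgs4 at 93.2, Camk2b at 93.0, Camk2g at 66.9 and Camk2d at 14.9 CPM per kilobase. The WT order began with Nrgn at 152.6, Calm2 at 152.0, Camk2a at 139.7, Slc17a7 at 136.4 and Calm3 at 132.7, followed by Rgs4 at 111.7, Camk2b at 106.1, Camk2g at 73.5 and Camk2d at 15.1 CPM per kilobase. Neighbours from Nrgn to Calm3 lay within 1 SD of the next in KO, where the SDs of these 5 were 13.3 to 19.5 CPM per kilobase. In WT the step between Calm2 and Camk2a was larger than the SD of either (7.34 and 8.67), and that between Nrgn and Calm2 was not. In both groups Camk2g stood under Camk2b, and Camk2d under Camk2g, by more than the sum of their SDs.

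The genes whose level was most like each of the 9 were found by the SD of the log2 ratio over the 12 libraries, as a description. Sparcl1 was among the 2 genes most like Camk2a (SD 0.02). Calm2 was most like Ckb and Cpe, Calm3 like Pfn2 and Syp, and Nrgn like Camk2n1 and Fth1. Slc17a7 was most like Olfm1 and Gde1, Rgs4 like Habp4 and Ndrg3, and Camk2b like Ppp1ca and 2010300C02Rik. These are at or above the 95th percentile of count density. Camk2g was most like Cds1 and Syt13, and Camk2d like Dner and Vwa5a, with larger SDs of 0.09 for the Camk2d pair. The points share library and depth.

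The wider calmodulin pathway, 36 other genes such as those of its kinases, phosphatases and binding proteins, had 2 genes called higher and 12 lower in KO, where 15.3% of all tested genes were higher and 14.4% lower, with a median log2 fold change of -0.09 against 0.03 over all genes. Among the 12 were Pcp4, a small calmodulin-binding protein, at -0.33 ± 0.05 (SE, edgeR adjusted p = 0.000859), Gap43, a growth cone protein that binds calmodulin, at -0.22 ± 0.04 (adjusted p = 0.00125), and the calcineurin subunits Ppp3r1 at -0.35 ± 0.07 and Ppp3ca at -0.34 ± 0.07 (adjusted p = 0.00171 and 0.00206). Each of these lay above the 98th percentile of count density. The 2 higher genes were less dense: Ppm1f, a phosphatase that acts on CaMKII, at 0.16 ± 0.03 (adjusted p = 0.00315), and Eef2k, a kinase that brakes translation elongation, at 0.20 ± 0.05 (adjusted p = 0.00678). Ppm1f had 154.8 to 162.6 CPM in KO and 134.2 to 149.5 CPM in WT, without overlap. The calmodulin-stimulated cyclase Adcy1 was at -0.02 ± 0.09 (adjusted p = 0.899) and the kinase Dclk1 at -0.11 ± 0.05 (adjusted p = 0.115). Under density offsets the list had 2 genes higher and 2 lower, where 8.45% of all tested genes were higher and 7.97% lower. At an unadjusted p under 0.05 that edgeR fit had 5 higher and 6 lower, against 16.2% and 15.5% of all genes. Ppm1f passed at 0.20 ± 0.03 (edgeR adjusted p = 0.00186). Ppp3r1 at -0.09 ± 0.03 (adjusted p = 0.0411) and Ppp3ca at -0.10 ± 0.03 (adjusted p = 0.0434) passed too. Pcp4 was at -0.08, Gap43 at 0.0034 and Eef2k at 0.11, and these did not pass. Without KO 2 and WT 4 as well, Ppm1f kept its call in that fit and both calcineurin genes lost it, Ppp3r1 at -0.07 (adjusted p = 0.117) and Ppp3ca at -0.08 (adjusted p = 0.115). The other higher gene with density offsets in all 12 libraries, named after its values were seen, was the calmodulin-dependent kinase gene Camk4, at 0.26 ± 0.07 (adjusted p = 0.0202).

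Among 34 other genes of excitatory cortical neurons 0 were higher and 11 lower in KO by edgeR, where 15.3% and 14.4% of all tested genes were, with a median of -0.10. At an unadjusted p under 0.05 these were 1 and 13, against 22.2% and 19.2% of all genes, and DESeq2 called 0 higher and 12 lower, against 11.9% and 15.3%. Itpka, an inositol trisphosphate kinase of dendritic spines, was at -0.37 ± 0.08 (SE, adjusted p = 0.00394) and Ngef, a guanine nucleotide exchange factor, at -0.24 ± 0.06 (adjusted p = 0.00532). The neuropeptide gene Cck was at -0.39 ± 0.09 (adjusted p = 0.00630) and the transcription cofactor gene Lmo4 at -0.29 ± 0.08 (adjusted p = 0.0102). Arpp21 at -0.11 ± 0.05 (adjusted p = 0.0815) and Nptx1 at -0.10 ± 0.08 (adjusted p = 0.360) did not pass. In the fit with density offsets 1 was higher, the muscarinic receptor gene Chrm1, named after its values were seen (0.12 ± 0.04, adjusted p = 0.0473), and 0 were lower. At an unadjusted p under 0.05 that fit had 3 higher and 3 lower, against 16.2% and 15.5% of all genes, and Itpka was at -0.17 (adjusted p = 0.0615). Itpka belongs to both lists.

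Of 17 tested regulators of G protein signalling other than Rgs4, 2 were called higher and 3 lower, near the 15.3% and 14.4% of all tested genes. Rgs22 rose, at 6.19 ± 2.77 CPM in KO and 2.02 ± 0.758 CPM in WT (SD; log2 fold change 1.62 ± 0.29 SE, edgeR adjusted p = 0.00143), and so did Rgs16, at 27.5 ± 3.72 CPM in KO and 19.9 ± 3.27 CPM in WT (0.48 ± 0.12, adjusted p = 0.00707). Rgs20 fell, with 45.9 to 48.1 CPM in KO and 54.1 to 62.5 CPM in WT (-0.28 ± 0.05, adjusted p = 0.000814), and Rgs7 (-0.24 ± 0.06, adjusted p = 0.00771) and Rgs10 (-0.20 ± 0.07, adjusted p = 0.0399) fell too. Rgs7bp and Rgs8 did not pass, at -0.10 ± 0.06 and 0.09 ± 0.08 (adjusted p = 0.220 and 0.440). Rgs22, Rgs16 and Rgs20 are not dense genes and passed with density offsets, at 1.36, 0.37 and -0.30, whereas Rgs7 and Rgs10 did not (adjusted p = 0.0688 and 0.269). With these offsets and without KO 2 and WT 4, Rgs22 at 0.98 and Rgs20 at -0.29 passed, and Rgs16 did not, at 0.22 (adjusted p = 0.0909). Rgs10 lost its call in 10 of the 12 fits that left out 1 library. With the library total as a covariate none of the genes named here from the 3 lists passed, with Rgs22 at 1.93 ± 0.50 (adjusted p = 0.117) and Rgs20 at -0.27 ± 0.08 (adjusted p = 0.160).

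Markers of other cell types gave these counts beside the 9 genes, where 15.3% of all tested genes were higher and 14.4% lower, and their part in the result was not tested. Of 16 inhibitory neuron markers 0 were higher and 5 lower, of 12 astrocyte markers 0 and 5, of 12 oligodendrocyte markers 0 and 4, of 8 oligodendrocyte precursor markers 4 and 0, of 13 microglia markers 0 and 8, of 13 endothelial and mural cell markers 4 and 0, and of 2 tested blood cell markers 0 and 0. Under density offsets 8.45% of all tested genes were higher and 7.97% lower. In that fit inhibitory neuron markers had 0 higher and 2 lower, astrocyte markers 0 and 2, and oligodendrocyte markers 0 and 0. Oligodendrocyte precursor markers had 3 and 0, microglia markers 0 and 6, endothelial and mural cell markers 0 and 1, and blood cell markers 0 and 0. The summed level of the microglia markers was 680.5 to 710.8 CPM in KO and 759.1 to 942.8 CPM in WT, without overlap. The summed level of the excitatory list was 5024 to 6274 CPM in KO and 5838 to 6382 CPM in WT, with KO 2 and WT 4 the lowest of their groups.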

How the data were processed

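The deposited table holds whole-number read counts per gene and library, not normalized, per its file header and values; STAR and mm10 are named without a version, per the submitters' processing notes. The sources used here do not state the counter, its strand setting or its duplicate handling. Per the labels, RNA came from a Trizol and column extraction. The 9 genes and all gene lists were chosen with earlier results of these data known.

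Counts were tested in R 4.3.3 with edgeR 4.0.16 (TMM, filterByExpr by group, quasi-likelihood fit on group alone, 12 libraries, Benjamini-Hochberg at 0.05 over 14274 genes). CPM uses TMM-scaled totals; fold changes are KO over WT. P-values measure the spread between mice. Scripts were tested on simulated data in which every count followed the library total, which says nothing of counts that level off. Exonic lengths, coordinates and sequences come from GENCODE M21 (14734 genes matched by RefSeq accession, 123 by symbol, 52 unmatched). Density offsets are a loess fit (span 0.3) per library on log2 mean count per exonic base.

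Alternatives were DESeq2 1.42.0 (Wald test, or size factors in edgeR), upper-quartile factors, limma-voom (limma 3.58.1), no filter, a minimum of 1 CPM in at least 5 libraries, a block for mouse number, the log2 library total, density offsets, cyclic loess (3 iterations), each library left out, KO 2 and WT 4 left out, and the libraries of shared depth. Density offsets without KO 2 and WT 4 were added after the data were seen. Named genes are the 9, Upf3b, up to 4 called genes in each direction by smallest p and 2 uncalled genes by level of each pathway list, and 2 genes most like each of the 9 (pseudocount 0.5 CPM). A few genes that fall under this rule or these lists are not reported here. Cell type marker lists are given as counts and sums, with no member named.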

Additional observations from a re-analysis of the deposited data

Results flagged for a closer look

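Of 62 groups of values checked for a library far from the rest of its group, 10 had one; chance alone gives about 1 in 20 such groups, and the genes are not independent. The KO libraries with such a value were mostly KO 1, the KO library with the lowest total. Camk2a had 745.5 CPM in KO 1, against 560.4 to 602.4 in the other KO libraries. Pcp4 had 66.9 CPM in KO 1, against 54.5 to 57.6, and Dclk1 had 812.8 CPM in KO 1, against 689.7 to 720.6. Rgs7 had 81.2 CPM in KO 2, against 100.3 to 105.1 in the other KO libraries.

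Among the WT libraries each such value was in WT 4, the library with the highest striatal marker sum. Camk2d had 169.1 CPM in WT 4, against 109.8 to 133.1 in the other WT libraries, and was the only gene of these that lay above the rest there. Camk2g had 218.3 CPM in WT 4, against 272.2 to 289.1, and Nrgn had 182.3 CPM in WT 4, against 214.6 to 234.3. Cck had 80.2 CPM in WT 4, against 95.2 to 101.5, Lmo4 had 132.1 CPM, against 149.5 to 161.9, and Nptx1 had 306.6 CPM, against 389.4 to 419.8. The part of tissue makeup in these values was not tested.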

How the results depend on the processing

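Without any 1 library 6 to 8 of the 9 genes were lower and 0 higher, with 1585 to 2420 of all genes higher and 1544 to 2467 lower. In the calmodulin pathway 2 to 3 genes were higher and 10 to 14 lower, and among excitatory neuron genes 0 to 1 and 8 to 13. DESeq2, size factors, upper-quartile factors, limma-voom, both other filters, cyclic loess and the fit without KO 2 and WT 4 kept the count of the 9 within 1.5 times.

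Lower calls among the 9 became 1 with density offsets, 1 with these and without KO 2 and WT 4, 0 with the library total and 0 at shared depth, a comparison with 1 KO library that did not call Upf3b either. Higher and lower calls over all genes were 1206 and 1138 with density offsets, 1292 and 1081 with these and without KO 2 and WT 4, 84 and 11 with the total as a covariate, and 0 and 0 at shared depth (unadjusted by edgeR 206 and 72). The calmodulin pathway had 2 lower with density offsets, 6 higher and 2 lower with these when KO 2 and WT 4 were left out (neither Ppp3r1 nor Ppp3ca among the 2), and 0 and 0 with the library total and at shared depth. The excitatory genes had 1 higher and 0 lower with density offsets, 6 and 1 with these and without KO 2 and WT 4, 1 and 5 with cyclic loess, 1 higher without KO 2, without WT 4 and without both, and 0 lower at shared depth and with the library total.

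No pairing by mouse number showed: Pearson r was -0.38 to 0.14 for same-numbered KO and WT mice. For differently numbered mice it was -0.33 to 0.52. These values cannot tell whether the mice were paired in another way. With the replicate block 6 of the 9 were lower, Camk2b having missed the threshold (edgeR adjusted p = 0.0618), with 1129 higher and 1186 lower over all genes and 1 higher and 5 lower among excitatory genes.

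Directions turned as follows, on the log2 scale. With the library total Camk2a was 0.018, Calm3 0.0041, Nrgn 0.020 and Slc17a7 0.074. With density offsets Camk2b was 0.050, Slc17a7 0.025 and Gap43 0.0034, and without KO 2 and WT 4 as well Camk2b was 0.049, Slc17a7 0.047, Adcy1 0.20 and Nptx1 0.10. After cyclic loess Adcy1 was 0.14. At shared depth Camk2a was 0.12, Camk2b 0.038, Calm3 0.083, Nrgn 0.14, Slc17a7 0.17, Rgs4 0.051, Ppp3r1 0.0075, Ppp3ca 0.0096, Ngef 0.0014, Cck 0.047 and Lmo4 0.076, and Upf3b was -4.03 (edgeR adjusted p = 0.385). The cause of each turn was not tested. Depth and group cannot be told apart for 4 of the 5 KO libraries, whose totals exceed every WT total.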
